A study of Homo sapiens with 24 samples.

Results

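Ago2 CLIP peaks that match the seed of the miR-15/16 family or that of the miR-103/miR-107 family were described in 293S cells with and without sodium arsenite. CLIP is crosslinking and immunoprecipitation, here of RNA bound to Ago2, the Argonaute protein that holds a miRNA and brings it to its target RNA. A peak was a member when the families listed for it in the authors' deposited table included hsa-miR-16-5p or hsa-miR-103a-3p, and no CLIP value entered the choice. Of 24041 peaks in 6088 genes, 1166 peaks in 962 genes were members. Of these, 787 matched only the miR-15/16 seed, 172 only the miR-103/miR-107 seed and 207 both.

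The 293S line derives from human embryonic kidney. Untreated cells were compared with cells given 1 mM sodium arsenite, a thiol-reactive inducer of stress granules, during 30 min. Each of the 6 groups (mRNA CLIP, RNA-seq and the LO band CLIP libraries that gave miRNA abundance, each untreated and with arsenite) held 4 biological replicates of this 1 line, and no group carried a genetic change according to the labels. The tables used here hold 1 value per peak or miRNA over all replicates, so no value per library, standard deviation, test across replicates or read depth could be shown. The RNA-seq groups were not used.

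A miRNA recognizes its targets mainly by pairing of its seed, a short stretch near its 5′ end, with a site in the mRNA. The miR-15/16 family is best known as a brake on cell division, through sites in mRNAs of cyclins, of cell cycle kinases and of the survival factor BCL2, and its miR-15a and miR-16-1 genes are often lost in chronic lymphocytic leukaemia. The miR-103 and miR-107 genes lie in introns of pantothenate kinase genes, and their product is known for repressing DICER1, the enzyme that matures miRNAs, and for effects on metabolism.

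The mature sequences of the 2 families, with seeds that overlap, are given first (RefSeq, GRCh38.p14, where all 8 names matched; capitals mark the seed, bases 2 to 8 from the 5′ end).
hsa-miR-16-5p: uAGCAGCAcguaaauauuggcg
hsa-miR-15a-5p: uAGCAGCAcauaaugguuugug
hsa-miR-15b-5p: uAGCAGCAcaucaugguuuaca
hsa-miR-195-5p: uAGCAGCAcagaaauauuggc
hsa-miR-424-5p: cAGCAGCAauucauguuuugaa
hsa-miR-497-5p: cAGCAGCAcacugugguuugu
hsa-miR-103a-3p: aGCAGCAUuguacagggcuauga
hsa-miR-107: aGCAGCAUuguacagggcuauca

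The first 6 miRNAs share the seed AGCAGCA and the last 2 the seed GCAGCAU, which is the same run of bases shifted by 1. The matching DNA-strand sites were TGCTGCT for miR-15/16 and ATGCTGC for miR-103/miR-107, which share 6 bases, so that the 8-base string ATGCTGCT holds both. Compared over their whole length from the first base, miR-103a-3p and miR-107 were equal at 22 of 23 positions, and miR-16-5p and miR-103a-3p at 5 of 22. The latter count leaves the shared seed bases out of register by 1, so it does not measure likeness in or beyond the seed. The peak table names the matched families and not the sites. Whether a peak with both seeds held ATGCTGCT or 2 separate sites cannot be told apart here.

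The seeds were found together often. Since the 2 sites share 6 bases, an excess over the share of all peaks is partly built in. How much of it the overlap gives was not tested. Of the 379 peaks with a miR-103/miR-107 seed, 207 (54.6%) also had the miR-15/16 seed, against 994 (4.13%) of all peaks. Seen from the other side, 20.8% of the miR-15/16 peaks had the miR-103/miR-107 seed, against 1.58% of all peaks. The next most frequent partner of miR-15/16 was the miR-29 family, with 39 of 994 peaks (3.92%, against 1.41% of all peaks), followed by miR-30 with 13 (1.31%, against 1.39% of all peaks). The miR-29 site also overlaps that of miR-15/16, since TGGTGCT and TGCTGCT share 4 bases in TGGTGCTGCT (miR-29a-3p is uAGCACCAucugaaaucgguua). The 30 peaks with the miR-29 seed and only the miR-15/16 seed of the pair had a median log ratio of 0.65, and the 757 without miR-29 had 0.81.

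On Ago2, the miR-15/16 family was far more abundant than miR-103/miR-107, and the authors' test passed neither family's miRNAs. The authors' deposited table, made from the LO band libraries, gave miR-16-5p a mean of 1001623 normalized reads untreated and 1016984 with arsenite, a log2 fold change of 0.02 (p = 0.863 and adjusted p = 1, DESeq). It ranked 5 among mature miRNAs and made up 5.64% of their sum. In the authors' deposited table miR-15a-5p had 68513 and 60393 (log2 fold change -0.18), miR-424-5p 9227 and 8495 (-0.12), miR-195-5p 4026 and 3857 (-0.06) and miR-15b-5p 3739 and 3453 (-0.11). The scarcest member, miR-497-5p, had 100.02 and 123 (0.30) in the authors' deposited table. miR-103a-3p had 25952 and 26521 (0.03) and miR-107 had 2446 and 2553 (0.06), also in the authors' deposited table. Summed over each family, these means were 38.3 times higher for miR-15/16 than for miR-103/miR-107 untreated and 37.6 times higher with arsenite. The log2 ratio of the summed means, arsenite over untreated, was 0.01 for miR-15/16 and 0.03 for miR-103/miR-107. Every one of the 8 miRNAs had an adjusted p of 1 in the authors' deposited table, and 0% of its 1213 entries passed 0.05, with 1.98% under 0.05 unadjusted (DESeq). A p that misses the threshold does not show that the miRNAs were equal.

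The seed classes differed in their log ratio of arsenite over untreated CLIP signal. Peaks with both seeds had the highest median, 1.37 (207 peaks), peaks with only the miR-103/miR-107 seed followed with 1.09 (172), and peaks with only the miR-15/16 seed had 0.81 (787). The 6415 peaks with other listed seeds had 1.07 and the 16460 peaks with no listed seed 0.48. These are the authors' values per peak. Their log base and normalizer are not stated, and they were not turned into folds.

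The medians of the classes were set side by side with intervals over peaks, which do not measure the spread between replicates. They are 95% binomial intervals from ranks, and they treat peaks as independent although peaks overlap and share genes and libraries, so they are too narrow. They ran from 1.10 to 1.53 for both seeds, 0.78 to 1.34 for only miR-103/miR-107 and 0.70 to 0.90 for only miR-15/16. The median with both seeds exceeded that with only miR-15/16 by 0.56 (interval of the difference 0.28 to 0.75). It exceeded that with only miR-103/miR-107 by 0.28, with an interval from -0.09 to 0.63 that includes 0. The miR-103/miR-107 class exceeded the miR-15/16 class by 0.28 (-0.04 to 0.55), which includes 0 as well. Against peaks with other listed seeds, only miR-15/16 lay lower by 0.27 (difference -0.27, interval -0.38 to -0.16) and both seeds higher by 0.30 (0.02 to 0.46). The class with only miR-103/miR-107 differed from them by 0.01 (-0.30 to 0.27). The other seeds pool 48 families, and a median above that of both seeds was not particular to this class. Peaks of 13 of these families had one, among them miR-25-3p (1.72, 430 peaks), miR-106a-5p (1.67, 716), miR-30a-5p (1.60, 335), miR-19a-3p (1.57, 556) and miR-130a-3p (1.55, 417).

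Counts above 0 gave the same order. Log ratios above 0 were found at 934 of the 1166 members (80.1%, Wilson 95% interval 77.7 to 82.3%), where 70.3% of all peaks lay above 0. By class they were found at 185 of 207 peaks with both seeds (89.4%), 142 of 172 with only miR-103/miR-107 (82.6%) and 607 of 787 with only miR-15/16 (77.1%). Log ratios above 1 occurred at 61.4%, 54.1% and 43.6% of these classes, where 39.1% of all peaks passed 1. The low tail differed too: 2 peaks with both seeds lay below -1 (0.966%), as did 7 with only miR-103/miR-107 (4.07%) and 46 with only miR-15/16 (5.84%), where 7.43% of all peaks did. The 2 low peaks with both seeds were in the 5'UTR of AGPAT5 (-1.32) and the 3'UTR of VAPB (-1.07), named after their values were seen.

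**Figure D1:**
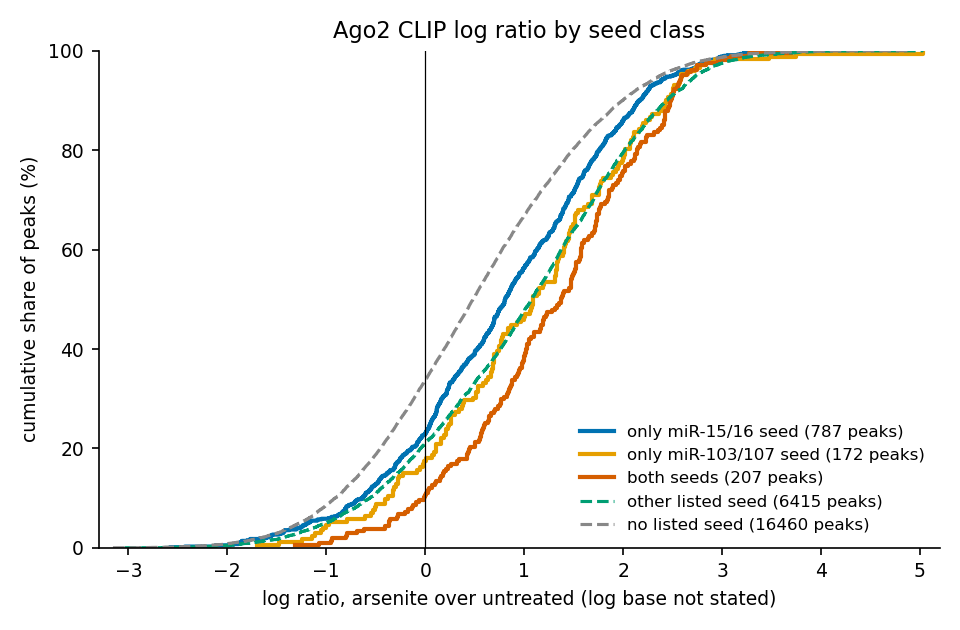
Cumulative share of peaks (y axis, percent) at or below each log ratio of arsenite over untreated (x axis, log base not stated), for the 3 seed classes (solid lines) and for peaks with other or no listed seeds (dashed lines). The line for both seeds lies to the right, with a median of 1.37, and the line for only miR-15/16 lies between the lines for other seeds and for no seed.

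Members were spread over transcripts in another way than peaks with other seeds. Coding sequence (CDS) held 40.8% of the members (Wilson 95% interval 38.0 to 43.7%), against 27.0% (26.0 to 28.1%) of the peaks with other listed seeds and 34.5% of all peaks. The 3' untranslated region (3'UTR), where most known miRNA sites lie, held 50.1% of the members and 64.4% of the peaks with other seeds. It held 51.0% of all peaks and 45.8% of those with no listed seed, so the members lay close to the share of all peaks. The share in CDS was 40.3% for only miR-15/16, 45.3% for only miR-103/miR-107 and 39.1% for both, with overlapping intervals. The 5'UTR held 83 members and noncoding exons 23.

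Within 3'UTRs both classes with a miR-103/miR-107 seed stood above the class without it. The median was 1.52 for both seeds (114 peaks), 1.45 for only miR-103/miR-107 (78) and 0.99 for only miR-15/16 (392). All 3'UTR peaks with other listed seeds had 1.21 and those with none 0.68. Only miR-103/miR-107 exceeded only miR-15/16 by 0.45 here (interval 0.10 to 0.69), and both seeds exceeded only miR-103/miR-107 by 0.07 (-0.24 to 0.45). Of the 3'UTR members, 84.6% lay above 0, where 76.2% of all 3'UTR peaks did.

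In CDS the medians were lower. They were 1.10 for both seeds (81 peaks), 0.78 for only miR-103/miR-107 (78) and 0.64 for only miR-15/16 (317), with 1.01 for other listed seeds and 0.45 for none. Both seeds exceeded only miR-15/16 by 0.46 (0.21 to 0.91), and the miR-103/miR-107 class exceeded the miR-15/16 class by 0.14 (-0.15 to 0.71), an interval that includes 0. Of the CDS members, 77.3% lay above 0, where 68.4% of all CDS peaks did. In 5'UTRs, where 61 of 83 members lay above 0 (73.5%, with 60.8% of all 5'UTR peaks), the intervals of all 3 class differences included 0, with 62, 11 and 10 peaks for only miR-15/16, only miR-103/miR-107 and both. In noncoding exons 11 of 23 members lay above 0 (47.8%), where 42.6% of all such peaks did.

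**Figure D2:**
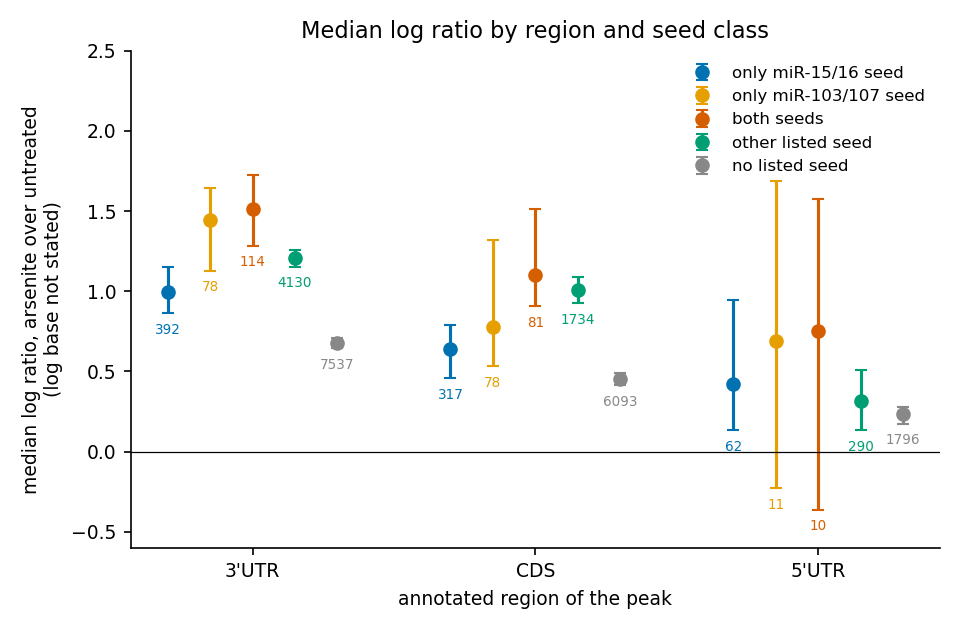
Median log ratio of arsenite over untreated (y axis, log base not stated) by annotated region (x axis) and seed class; bars are 95% binomial intervals of the median over peaks, and the numbers give the peaks in each group. In 3'UTRs the medians of both seeds (1.52) and only miR-103/miR-107 (1.45) lie above that of only miR-15/16 (0.99).

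The classes kept this order of medians where no other family was listed. No other listed family was matched by 162 of the 207 peaks with both seeds, 139 of the 172 with only miR-103/miR-107 and 640 of the 787 with only miR-15/16. Their medians were 1.34, 1.06 and 0.76, and both seeds exceeded only miR-15/16 by 0.58 (0.27 to 0.78). Members that matched at least 1 other family had medians of 1.52 (45 peaks), 1.44 (33) and 1.03 (147). The 5232 peaks with exactly 1 listed family outside the pair had a median of 1.02.

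Peak length moved with the log ratio and differed between the classes. Over all peaks, the median log ratio was 1.04 for the shortest peaks (3 to 38 nucleotides) and 0.34 for the longest (66 to 219). Members with only the miR-15/16 seed were the longest, with a median of 56 nucleotides, against 52 for only miR-103/miR-107, 49 for both and 50 for all peaks. Among peaks of at most 50 nucleotides, the medians were 1.67 for both seeds, 1.48 for only miR-103/miR-107, 1.28 for only miR-15/16, 1.44 for other seeds and 0.69 for none. Among longer peaks they were 0.94, 0.76, 0.61, 0.68 and 0.30. The difference between both seeds and only miR-15/16 was thus 0.40 in short peaks (0.16 to 0.68) and 0.33 in long ones (0.01 to 0.62), and in all peaks 0.56. Between only miR-103/miR-107 and only miR-15/16 it was 0.20 and 0.15, with intervals that include 0. The part of length in the class differences was not tested further.

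**Figure D3:**
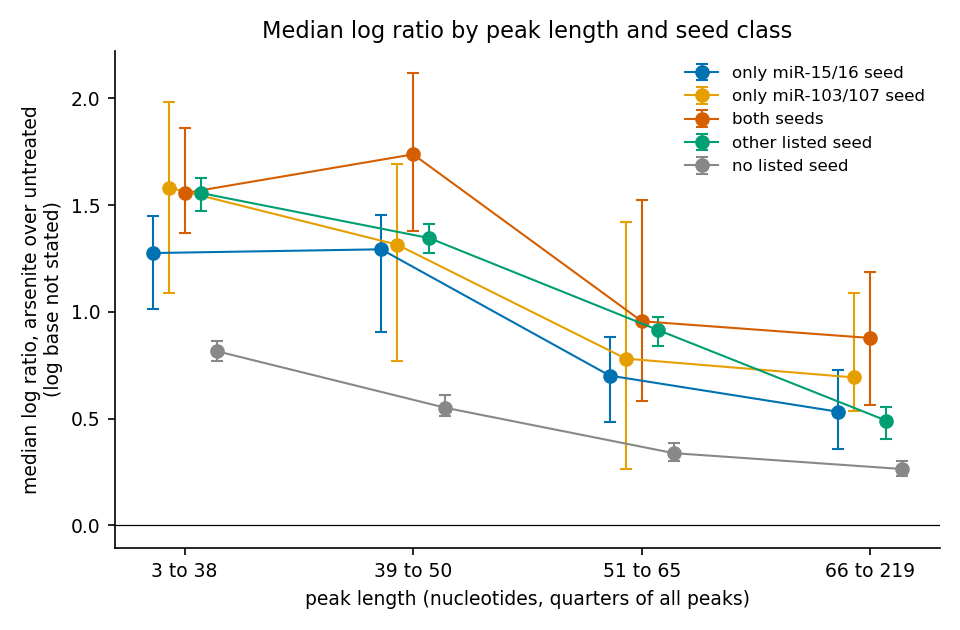
Median log ratio of arsenite over untreated (y axis, log base not stated) in 4 groups of peak length (x axis, nucleotides) for each seed class; bars are 95% binomial intervals of the median over peaks. Every class has a lower median in the longest group than in the shortest, 0.53 against 1.28 for only miR-15/16.

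The log average, the authors' measure of CLIP signal over both treatments, also differed between the classes. Its median was -4.67 for only miR-15/16, -4.91 for both, -5.23 for only miR-103/miR-107 and -5.18 for all peaks. When all peaks were divided into 5 equal groups by log average, the median log ratio with both seeds was above that with only miR-15/16 in every group. The pairs of values, from the lowest to the highest log average, were 0.97 and 0.87, 1.28 and 0.82, 1.45 and 1.01, 1.74 and 0.83, and 1.06 and 0.67. These groups held 28 to 52 peaks with both seeds. The intervals of the 2 medians overlapped in every group except group 4, where they were 1.22 to 2.12 and 0.61 to 1.05. Only miR-103/miR-107 lay below only miR-15/16 in the middle group (0.93 and 1.01) and above it in the other 4. The part of signal strength in the class differences was not tested further.

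Peaks were also compared within a gene. Where a gene had both a member and a peak without any listed seed in the same region, the median log ratios were subtracted. For only miR-15/16 the median difference was 0.08 (interval -0.03 to 0.25) over 443 such pairs, and the member was higher in 229 of them (51.7%). For only miR-103/miR-107 it was 0.47 (0.21 to 0.68), with the member higher in 68 of 102 pairs (66.7%). For both seeds it was 0.34 (0.09 to 0.60), with the member higher in 83 of 127 (65.4%). Without regard to gene, peaks with only miR-15/16 stood 0.32 above peaks with no seed (0.22 to 0.42).

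The within-gene differences were next split by region, without a test between regions. In 3'UTRs they were 0.66 for only miR-103/miR-107 (0.27 to 1.12, member higher in 34 of 41 pairs), 0.64 for both seeds (0.19 to 0.87, 50 of 73 pairs) and 0.10 for only miR-15/16 (-0.07 to 0.38, 125 of 239 pairs). In CDS they were 0.30 (-0.32 to 0.61, 29 of 54 pairs), 0.05 (-0.15 to 0.23, 29 of 50) and 0.08 (-0.06 to 0.27, 89 of 174), and all of these intervals include 0. The log average of the member was higher in 74.8% of pairs for both seeds, 65.7% for only miR-103/miR-107 and 63.0% for only miR-15/16. Against peaks with other listed seeds in the same gene and region, members with only miR-15/16 were lower by a median of 0.21 (difference -0.21, interval -0.32 to -0.04, 312 pairs). For only miR-103/miR-107 that difference was 0.11 (-0.34 to 0.46, 77 pairs) and for both seeds 0.18 (-0.15 to 0.36, 94 pairs). With peaks in the lower 50% of log averages left out, the within-gene difference of all members from peaks with no seed was 0.053 (-0.07 to 0.23), against 0.22 (0.11 to 0.33) with all of them.

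**Figure D4:**
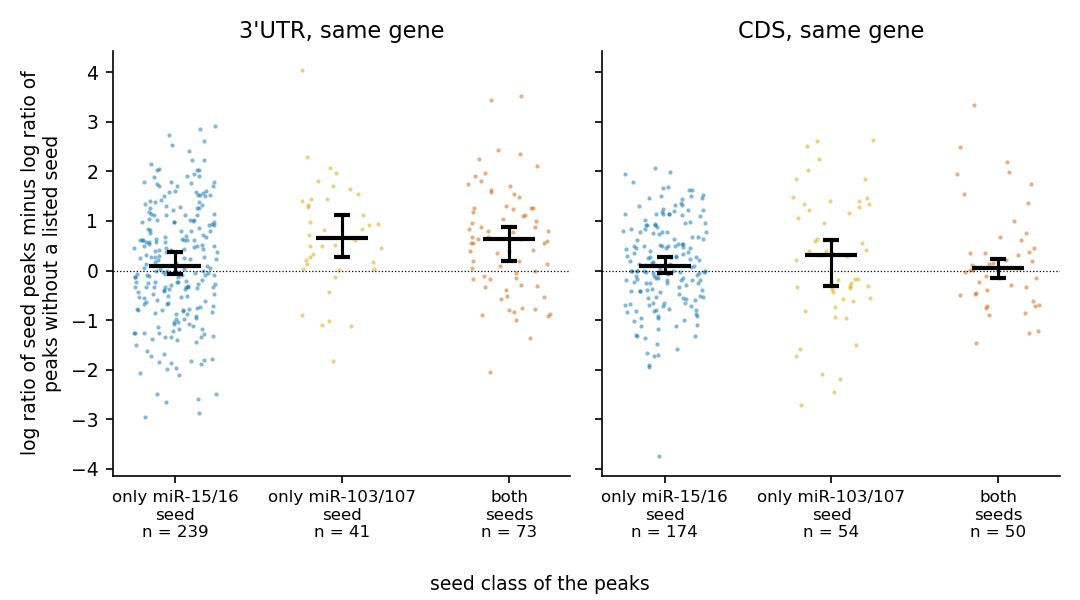
Difference in log ratio between member peaks and peaks without a listed seed in the same gene (y axis), for 3'UTR (left) and CDS (right) and by seed class (x axis); each point is 1 gene, black lines are medians and bars their 95% binomial intervals. In the 3'UTR the medians are 0.66 for only miR-103/miR-107 and 0.64 for both seeds, and 0.10 for only miR-15/16.

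A few genes held members of different classes in the same region. Both seeds and only miR-15/16 met in 24 genes, where the peak with both seeds was higher in 18, by a median of 0.65 (range -0.94 to 1.80). NOTCH2, a receptor of the Notch pathway, had 1.97 at a 3'UTR peak with both seeds (build hg19, chromosome 1, 120457871 to 120457897) and 0.17 at one with only miR-15/16 (120456640 to 120456680). SLC19A2, a thiamine transporter, had 2.96 and 1.55 in its CDS. AKAP10, an anchor of protein kinase A, went the other way, with 2.35 and 3.30. Only miR-103/miR-107 and only miR-15/16 met in 19 genes, and the miR-103/miR-107 peak was higher in 12 of them. Both seeds and only miR-103/miR-107 met in 6 genes, and the peak with both was higher in 5.

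Members with both seeds were often the strongest peak of their gene. In genes with 2 to 6 peaks, 49.1% of the members with both seeds had the gene's highest log average (53 of 108, Wilson 95% interval 39.8 to 58.4%). For only miR-103/miR-107 the share was 37.5% (26.7 to 49.8%), for only miR-15/16 37.2% (32.5 to 42.1%), for other listed seeds 40.5% (38.7 to 42.3%) and for no seed 27.3% (26.2 to 28.5%). The intervals of both seeds and of the other seeded classes overlapped, and those of all seeded classes except only miR-103/miR-107 lay above that of peaks with no seed.

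Named peaks were taken from the upper 75% of log averages, and their coordinates are on hg19 as deposited. With both seeds, the highest log ratio was 3.71 in the CDS of TCP1, a subunit of the cytosolic chaperonin (chromosome 6, 160206426 to 160206493), whose other 9 peaks had a median of 0.67. An overlapping TCP1 peak without a listed seed had 3.72. The TCP1 member was followed by 3.27 in ZNF91, a KRAB zinc finger gene with close relatives whose reads may be shared, and by 3.09 in SPRTN, a protease that clears DNA-protein crosslinks (chromosome 1, 231490488 to 231490529). SLC19A2 had 2.96, TRAM1, a protein of the endoplasmic reticulum translocon, 2.84, and CA2, a carbonic anhydrase, 2.75. TRAM1 and ZNF91 had no other peak. CA2 had 11 others with a median of 1.75.

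The lowest log ratios with both seeds were small in size. After AGPAT5, an acyltransferase of lipid synthesis, at -1.32, they were -0.95 in the 3'UTR of SH3BP5L, -0.80 in the CDS of GOSR2, a Golgi SNARE, and -0.79 in the 3'UTR of PSME3, a proteasome activator. The other peaks of AGPAT5 had a median of 0.71 and those of PSME3 0.70. The peaks with both seeds and the highest log averages were in SCARF2, a scavenger receptor (log average -0.42, log ratio 0.76), and C1orf85 (-0.59 and 2.58).

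With only the miR-103/miR-107 seed, the highest log ratio, 5.03, was at the CDS peak of DEGS1, a ceramide desaturase (chromosome 1, 224377463 to 224377506). Its other 12 peaks had a median of 2.40. STOM, the membrane protein stomatin, had 3.75 at its CDS peak with the miR-103/miR-107 seed and 1.73 at its only other peak, which held the miR-15/16 seed. TTLL12, a tubulin ligase-like protein, had 2.93 in its 3'UTR, DLG5, a scaffold of cell polarity, 2.84, FNBP1L, a membrane-bending protein, 2.78, and CAB39, a partner of the kinase LKB1, 2.58. At the low end were SHCBP1 with -1.70, DNAJC5, a co-chaperone of synaptic vesicles, with -1.48, KDM5C, a histone H3K4 demethylase, with -1.25, and PPP1R12C, a myosin phosphatase subunit, with -1.15. DNAJC5 and KDM5C had negative medians over their other peaks as well, -0.35 over 16 and -0.20 over 12. The highest log averages were 0.18 in LOC100507472 (log ratio -0.41) and -0.68 in TRAPPC1, a subunit of the TRAPP vesicle tether (log ratio 1.77).

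With only the miR-15/16 seed, the highest log ratios were close together. They were 3.42 in DNAJC24, a co-chaperone of diphthamide synthesis, 3.30 in AKAP10, 3.25 in TLK1, a kinase of chromatin assembly, 3.22 in CDC5L, a splicing factor, 3.22 in AURKAIP1, a mitochondrial ribosome protein, and 3.16 in CD2AP, an adaptor of the actin cytoskeleton. TLK1 had -1.85 at its only other peak, whereas the 6 others of CDC5L had a median of 2.85. The lowest were -2.57 in the 3'UTR of MAFG, a small Maf transcription factor (chromosome 17, 79877311 to 79877344), -2.43 in the CDS of CAMTA2, -2.13 in C22orf29 and -2.12 in TRIT1, a tRNA-modifying enzyme. MAFG and C22orf29 each had a member with only the miR-103/miR-107 seed in the same 3'UTR, at -0.09 and -0.01. CAMTA2 had 1.32 as the median of its 2 other peaks. The strongest signal was in CHAC1, an enzyme that degrades glutathione (log average 0.45, log ratio 0.15), and HES6, a transcription factor (0.07 and 1.66).

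Published targets of the families were described from lists made with earlier results of these data known. Of 47 listed miR-15/16 targets, 37 had a peak and 17 a member. Their 23 member peaks had a median log ratio of 1.35 and 20 lay above 0 (87.0%, Wilson 95% interval 67.9 to 95.5%, which includes the 70.3% of all peaks), and the 233 other peaks of the list had a median of 0.81 with 180 above 0. Of the 23, 22 had the miR-15/16 seed. Set against the other peaks of the same gene over all regions, the median of the members was higher in 9 of the 17 genes and lower in 8. VEGFA, the vascular growth factor, had 2.14 at its member in the 3'UTR (chromosome 6, 43752534 to 43752603), and its 6 other peaks had a median of 0.51. CCND1, which encodes cyclin D1, had 1.44 (chromosome 11, 69468065 to 69468106) and a median of -0.005 over its 21 other peaks. SESN1, a stress-induced sestrin, had 2.35 in its 3'UTR and 2.28 in its CDS, against 1.65 over 5 others. RECK, an inhibitor of metalloproteases, had 2.17 against 2.20 at its only other peak. The GTPase ARL2 had 1.61 and 2.11 against 1.99 at its only other peak. All of these members had only the miR-15/16 seed.

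The list held 4 peaks with both seeds, too few to set against the 89.4% of that class above 0. HMGA2, a chromatin protein, had 1.996 against a median of 2.12 over its 10 other peaks. CCNE1, which encodes cyclin E1, had 1.65 (chromosome 19, 30314915 to 30314960) against 0.84 over 3 others, and KIF23, a kinesin of cytokinesis, 1.57 against 1.11 over 5. WEE1, the kinase that holds CDK1 inactive, had 4 members: 1.15 and 0.99 in the 3'UTR, -0.31 in the CDS, all with only miR-15/16, and -0.51 at a CDS peak with only miR-103/miR-107. The peaks of WEE1 without a listed seed had a median of 0.24 in the 3'UTR (9 peaks) and -0.81 in the CDS (7), and the gene's highest value, 1.44, was at a peak that was no member. CARM1, an arginine methyltransferase, had 0.48 and -0.07 at 2 overlapping peaks, against 0.82 at its only other peak.

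Of 30 listed miR-103/miR-107 targets, 17 had a peak and 9 a member. The 15 member peaks had a median of 1.40 and 13 lay above 0 (86.7%, Wilson 95% interval 62.1 to 96.3%, which includes the 70.3% of all peaks), and the 135 other peaks of the list had a median of 0.52 with 88 above 0. Of the 15, 9 had a miR-103/miR-107 seed, with a median of 1.65 and all above 0. The other 6 had only the miR-15/16 seed, with a median of 0.23 and 4 above 0. Outside the list as well as in it, 86.3% of all peaks with a miR-103/miR-107 seed lay above 0. For all peaks with only miR-15/16 the share was 77.1%, and the listed peaks are too few to set against these shares. The median of the members was higher than that of the gene's other peaks in 6 of the 9 genes and lower in 3. DICER1 carried 4 members. Its miR-103/miR-107 peaks had 1.96 in the 3'UTR (chromosome 14, 95552632 to 95552677) and 2.73 in the CDS, and its miR-15/16 peaks had 1.60 and -1.43 in the 3'UTR. The -1.43 was the lowest of the gene's 24 peaks, whose median was 1.56. FBXW7, a ubiquitin ligase subunit, had 1.74 with both seeds, against a median of 1.89 over its 3 other peaks. CDK5R1, an activator of CDK5, had 1.40 and 0.83 at 2 overlapping peaks with both seeds, against 1.20 at its only other peak. CFL1, the actin-severing cofilin, had 1.06 with only miR-103/miR-107, against 0.25 over 7 others. With only miR-15/16, FASN, the fatty acid synthase, had 1.01 and -0.14 against -0.45 over 46 others, and CDK6, a cell cycle kinase, had 0.29 against 1.27 over 13.

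Members in cell cycle genes ranged from -0.51 to 2.58. Of 33 listed genes, 32 had a peak and 11 a member. The 14 member peaks had a median of 1.07 with 11 above 0 (78.6%, interval 52.4 to 92.4%, with 70.3% of all peaks inside it), and the 266 other peaks of the list had a median of 0.82. The median of the members was higher than that of the gene's other peaks in 7 of the 11 genes and lower in 4. E2F3, a transcription factor of S phase entry, had 2.58 at its 3'UTR member (chromosome 6, 20493129 to 20493175) and 0.70 as the median of its 17 other peaks. CDC27, a subunit of the anaphase-promoting complex, had 1.35 with both seeds against 0.78 over 8 others, and PLK1, a mitotic kinase, 0.95 against -0.28 over 2. CCNB1, which encodes cyclin B1, had 1.32 with only miR-103/miR-107, below the median of 1.88 over its 9 others. CDC25A, a phosphatase that activates CDKs, had 0.65 against 0.94 over 7, and CDKN1A, the CDK inhibitor p21, -0.06 against 0.78 over 12.

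**Figure D5:**
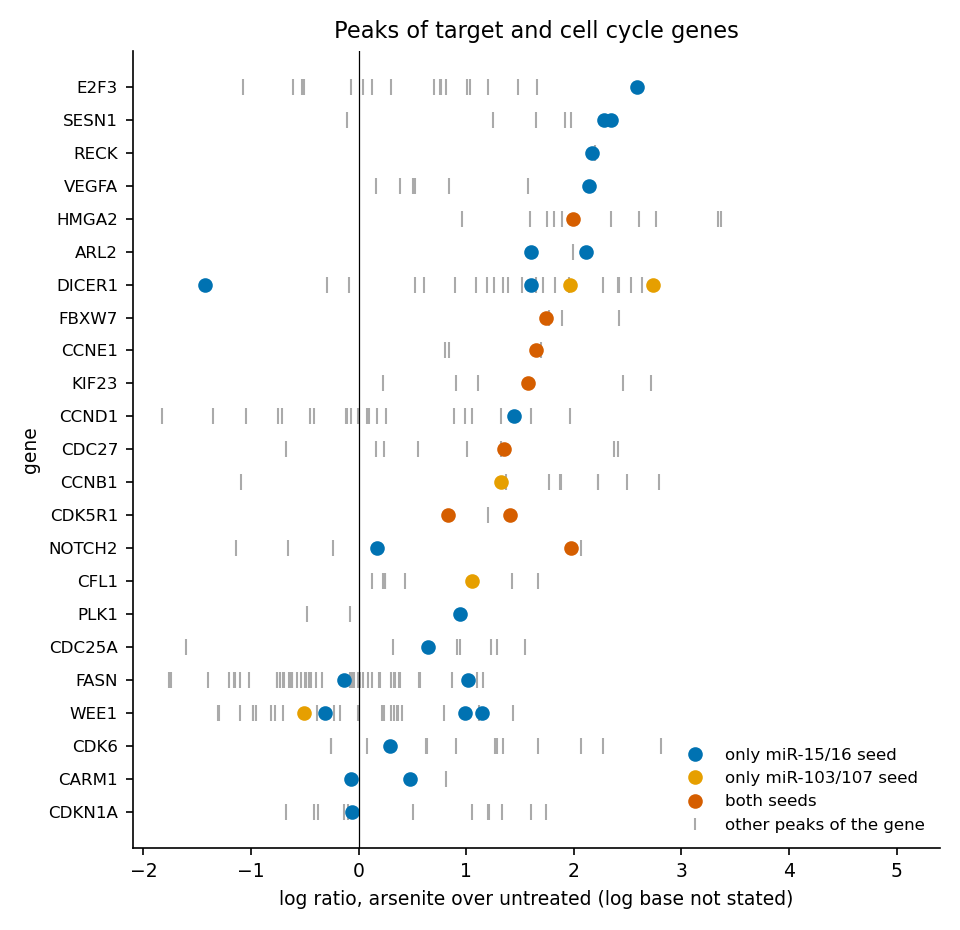
Log ratio of arsenite over untreated (x axis, log base not stated) at each peak of the named target and cell cycle genes (y axis); coloured points are members by seed class and grey ticks are the gene's other peaks. Members lie on either side of their genes' other peaks: those of E2F3 (2.58) and VEGFA (2.14) to the right of every other peak, 1 of DICER1 (-1.43) to the left of every other, and those of CDK6 (0.29) and CDKN1A (-0.06) below the other peaks' medians.

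Members were also found in mRNAs of the miRNA pathway itself. Of 26 listed names 18 had a peak and 6 a member, and 10 of the 11 member peaks lay above 0 (90.9%, Wilson 95% interval 62.3 to 98.4%, which includes the 70.3% of all peaks), as did 140 of the 189 other peaks of the list. The medians were 1.40 and 1.07. EIF2C1, which encodes AGO1, had 1.40 in the 3'UTR with only miR-103/miR-107, 1.38 there with only miR-15/16 and 0.69 in the CDS with only miR-103/miR-107. Its 21 other peaks over all regions had a median of -0.07. TNRC6A and TNRC6B, the scaffold proteins that Argonautes recruit, had 1.82 and 1.18, against 1.06 over 26 and 1.16 over 20 other peaks. DDX6, a helicase of mRNA decay, had 1.89 in its 5'UTR against 1.02 over 22, and MOV10, a helicase bound to Argonautes, 0.13 against 2.07 over 3. These 4 peaks had only the miR-15/16 seed. Of 9 markers of other cell types 1 had any peak, and none had a member.

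Most genes held 1 member (806 of 962), and 122 held 2. NUCKS1, a nuclear DNA-binding protein, had 5 in its 3'UTR, with log ratios of -0.60, -0.54, -0.29, -0.29 and 0.50. The 0.50 and one of the -0.29 were at peaks with both seeds, and its 54 other peaks had a median of 0.22. XIST, a long noncoding RNA, had 6 members from -1.48 to 0.37 among 309 peaks, and its 303 other peaks had a median of -0.42. TMEM8A had 4 members from 0.58 to 2.10. All 9 of its peaks lay above 0, and the 5 that were no members had a median of 1.19.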

How the data were processed

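The authors' deposited peak table lists for each peak, per the file headers, the log of its average CLIP level and the log of its arsenite over untreated ratio, both normalized, with its hg19 position, annotated transcript and region, and the matched 7-nucleotide seeds among 50 miRNA families. For the caller, log base and normalizer nothing was found in the labels or headers. Among the tools the authors used, Bowtie (0.12.8), TopHat and DESeq stand in the submitters' processing notes. The authors' deposited miRNA table holds signal values (mean reads per treatment, scaled by DESeq size factors), their ratio (fold), its log2 value, and DESeq p-values, per the file headers. Of the columns, 0 hold single samples, so the pairing of replicates could not be checked and no test across samples was made.

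Computed here with pandas 2.3.3 and scipy 1.17.1 were medians, rank-based binomial intervals, intervals of differences of medians combined from these (MOVER), Wilson intervals and within-gene differences. All cover counting over peaks only. Differences of medians between classes by region were taken only with at least 10 peaks in both groups. Other counts, medians and within-gene comparisons were not held to that limit, and some cover fewer. Peak length is end minus start plus 1. On simulated data with known shifts, the differences of medians from peaks with no seed and the within-gene differences recovered the shifts. Class assignment was tested on a few made-up rows. How often the intervals cover the true value was not tested. Named peaks, among the upper 75% of log averages, were the 6 highest and 4 lowest log ratios and the 2 highest log averages in each class, 1 per gene, the 4 genes with most members (1 of them is not reported here), and up to 10 genes of each list. Genes named in the comparison of classes within a gene were chosen after their values were seen. The members, lists and rules were chosen with earlier results of these data known.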

Additional observations from a re-analysis of the deposited data

How the results depend on the processing

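Over 9 alternatives, 6 summary results gave 54 values, all with the sign reported above, and 43 lay inside the interval of the reported value. The alternatives are subsets of the same peaks, so a kept sign is partly built in. For the differences of both seeds and of only miR-15/16 from only miR-103/miR-107, the reported intervals include 0 (-0.09 to 0.63 and -0.55 to 0.04), and their sign stays unsettled. The median of the members was 1.16 in 3'UTRs, 0.76 in CDS, 1.39 in peaks up to the median length and 0.69 in longer ones, and the share above 0 was 84.6%, 77.3%, 86.3% and 75.4%. With only the upper 50% of log averages, both seeds exceeded only miR-15/16 by 0.76, and the within-gene difference from peaks with no seed was 0.053; it was 0.33 with 3'UTR peaks only. The cause was not tested. With 1 member per gene, both seeds exceeded only miR-15/16 by 0.62 (0.31 to 0.77). The settings of CDS peaks and of peak length were chosen after seeing the data. No paired analysis was possible because the tables hold 1 value per peak or miRNA for all replicates together; for the same reason leaving out replicates was not run. Read depth is unknown, and it limits the precision of single peaks, which have no error of their own.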

Other observations

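The other parts of these miRNA hairpins were listed as well. In the authors' deposited table, miR-103a-2-5p, the arm opposite miR-103a-3p, had means of 2143 untreated and 1451 with arsenite (log2 fold change -0.56, p = 0.0268, adjusted p = 1, DESeq). The stem fragment upstream of miR-103a-3p had 386 and 217 (log2 fold change -0.83, p = 0.0116, adjusted p = 1, DESeq) in the authors' deposited table, while miR-103a-3p itself had 0.03. These 2 entries had the lowest unadjusted p of the hairpin parts listed. The arms opposite miR-16-5p, miR-16-1-3p and miR-16-2-3p, had log2 fold changes of -0.19 and -0.06 in the authors' deposited table. Other parts went either way there: miR-15a-3p had -0.51, the stem fragment upstream of miR-107 -0.29, miR-15b-3p 0.28 and miR-195-3p 0.37.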
